A study of Arabidopsis thaliana with 14 samples.

Results

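ARA12 (AT5G67360, probe set 246990_at) and SBT4.12 (AT5G59090, probe set 247755_at) are 2 subtilase genes of Arabidopsis thaliana, both on chromosome 5. They were taken by name and probe set, 2 of the 22746 probe sets of the array that are not controls, and both passed the filter on dim probe sets. Their transcript levels were read in roots on the Affymetrix ATH1 array, where a set of short probes reports each transcript. Both genes were chosen with their values on these arrays already known, so their levels and differences are described here without a test.

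The 14 arrays came from 7 genotypes of the Col-0 ecotype, each with 1 array at low and 1 at sufficient boron. In 4 genotypes NIP5;1, a boric acid channel of the root, was mutated. These were nip5;1, nip5;1 bor1, nip5;1 bor2 and nip5;1 nip6;1, called channel mutants here, and the last 3 are named by their second mutation as the bor1, bor2 and nip6;1 double mutants. In the other 3 genotypes, wild type and the bor1 and bor2 single mutants, NIP5;1 was intact. BOR1 and BOR2 export borate, and NIP6;1 is a channel of the same family. All plants had 10 days at 100 µM boron on solid medium before 2 days at 0.3 µM (low) or 100 µM (sufficient) boric acid, so they were 12 days old at harvest. Per the labels, the channel mutants grow poorly when boron is limiting. How many plants were combined for an array is not given in the labels, and in whole roots fewer cells of a type and less RNA per cell cannot be told apart.

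Subtilases are serine proteases related to bacterial subtilisin, and most plant members are made with a signal peptide and a prodomain and are secreted to the cell wall. They cut wall proteins and the precursors of signalling peptides. ARA12, also called SBT1.7, is best known from the seed coat, where mutants fail to release mucilage and pectin methylesterase activity is altered. SBT4.12 is one of the subtilases, with SBT4.13 and SBT5.2, reported to cut the precursor of the abscission peptide IDA.

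Signals are intensities that the authors had brought to a common array level, with array medians between 194.7 and 204.6. The bor2 array at 0.3 µM stood apart, its median rank correlation (Spearman) to all others being 0.946, while the other 13 arrays had 0.962 to 0.978. The GAPDH ratio, the signal of a 3′ control probe set over that of a 5′ one, rises as RNA breaks down. It was 1.38 to 1.75 at 0.3 µM and 1.15 to 1.5 at 100 µM in the channel mutants. In the intact genotypes it was 1.6 to 1.9 at 0.3 µM and 1.31 to 1.77 at 100 µM. Of 4 listed root hair markers 2 had a named probe set, the expansin genes EXPA7 and EXPA18. Their summed signal was 1913 to 2951 units at 0.3 µM and 1829 to 2365 at 100 µM in channel mutants, and 1838 to 2916 and 1851 to 2496 in intact genotypes. Of 8 listed shoot markers 2 had a named probe set, RCA (rubisco activase) and LHCB4.1, a light-harvesting protein. Their summed signal was 939.4 to 1932 units at 0.3 µM and 1294 to 2283 at 100 µM in channel mutants, and 1160 to 2680 and 1350 to 1536 in intact genotypes. None of the 4 mutated genes has a named probe set in the annotation table, so the genotype labels were not checked against them.

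ARA12 was about 2-fold higher in roots that had both a mutated NIP5;1 channel and low boron, and it read between 876.9 and 1098.4 signal units on the other arrays. At 0.3 µM it read 1865.5 units in the nip5;1 single mutant and 2568, 1826.3 and 2124.2 in the bor1, bor2 and nip6;1 double mutants. At 100 µM the same genotypes read 999.6, 923.5, 1098.4 and 945.4 units. All 4 arrays at low boron lay above all 4 at sufficient boron. The share of all probe sets whose arrays separate like this was not counted, here or in the comparisons below.

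In the genotypes with intact NIP5;1, ARA12 read 876.9 units in wild type, 957.4 in bor1 and 1090.2 in bor2 at 0.3 µM. At 100 µM it read 993.8, 984.8 and 1011.9 units in the same genotypes. These 2 sets of arrays overlapped, and wild type was slightly lower at low boron while bor2 was slightly higher. At 0.3 µM the 4 channel mutants all lay above the 3 intact ones, whereas at 100 µM the classes overlapped.

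The class means of ARA12 were 2096 ± 341.3 units in channel mutants at low boron (SD, n = 4) and 991.7 ± 77.98 at sufficient boron (n = 4). In intact genotypes they were 974.8 ± 107.7 at low boron and 996.8 ± 13.8 at sufficient boron (n = 3 each). In order of level, the first of these stands alone. The other 3 group means differ from one another by less than the larger of the SDs of the groups compared.

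**Figure D1:**
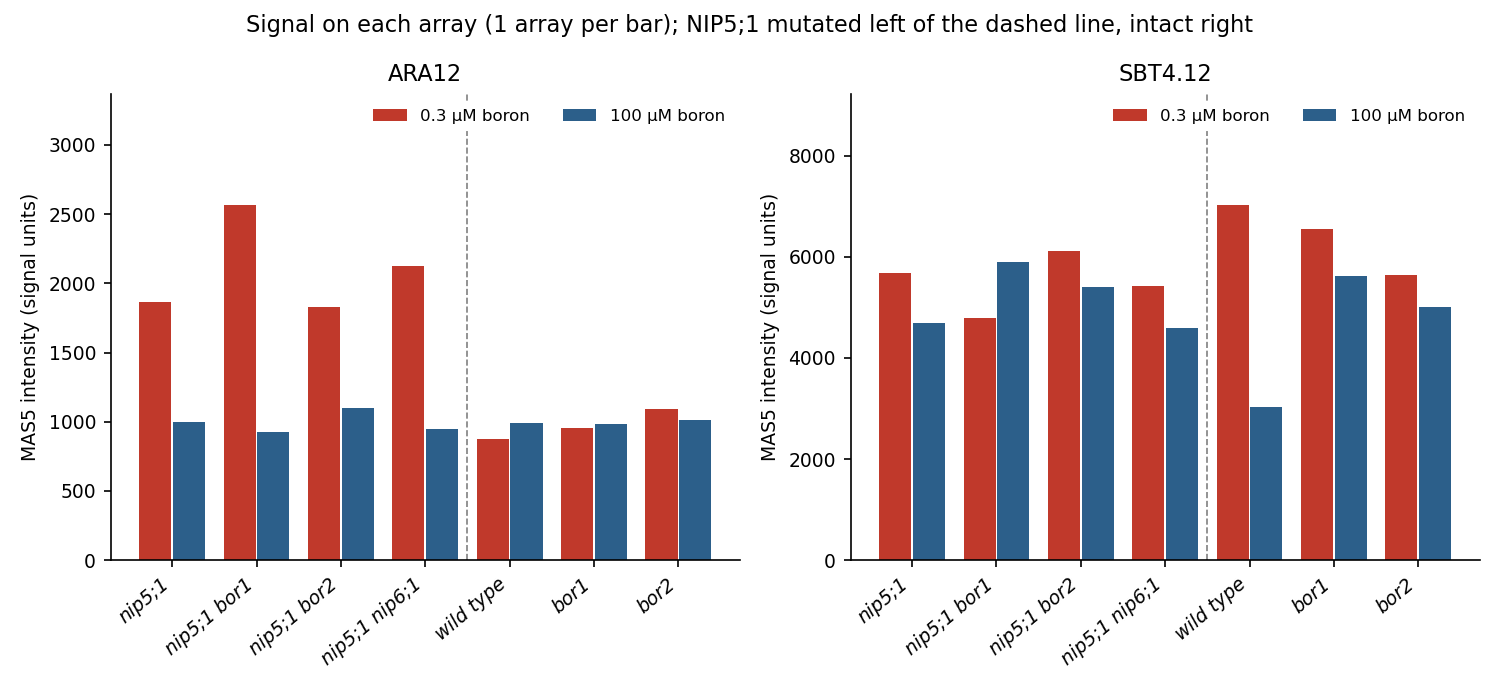
MAS5 intensity (signal units, linear axis from 0) of ARA12 (left) and SBT4.12 (right) on each of the 14 arrays, with 1 array per bar at 0.3 µM (red) and 100 µM boron (blue). ARA12 lies between 1826.3 and 2568 units in the 4 channel mutants at low boron and between 876.9 and 1098.4 elsewhere, while the lowest bar of SBT4.12, at 3038.2 units, is wild type at 100 µM.

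The low boron response, the log2 signal at 0.3 µM minus that at 100 µM, was worked out for ARA12 within each genotype. It was 0.90 in the nip5;1 single mutant and 1.48, 0.73 and 1.17 in the bor1, bor2 and nip6;1 double mutants. The mean of the 4 was 1.07 (2.1-fold, SE 0.12, SD between genotypes 0.33). Fits with limma across 13648 probe sets called 5.17% of them in this contrast at an adjusted p under 0.05 (2.85% higher and 2.32% lower at low boron), and 0.923% had a mean response of larger size than ARA12. In wild type, bor1 and bor2 the response was -0.18, -0.04 and 0.11, a mean of -0.04 (SE 0.13, SD 0.14), in a contrast where 0.132% of probe sets were called (0.103% higher and 0.0293% lower).

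The 2 mean responses of ARA12 differed by 1.11 log2 units (SE 0.18), in a contrast with 0.11% of probe sets called (0.0733% positive and 0.0366% negative). At 0.3 µM the channel mutants were 1.097 log2 units above the intact ones (2.14-fold, SE 0.12), where 0.989% of probe sets were called (0.711% higher and 0.278% lower in these mutants). At 100 µM the difference was -0.01 (SE 0.12), where limma called 0 probe sets (0%) and 384 of 13648 had an unadjusted p under 0.05. These ARA12 values are the same measurements that were known when the gene was chosen, and nothing is read from their size against those shares. Leaving out 1 genotype at a time kept the response of the channel mutants between 0.93 and 1.18, and the difference of the responses between 0.97 and 1.22. The GAPDH ratio as a covariate gave 1.08 and 1.11. In the same contrasts the shoot marker LHCB4.1 had a response of -0.46 in channel mutants (SE 0.16, limma adjusted p = 0.132) and 0.03 in intact genotypes. RCA, the other shoot marker, had -0.16 and 0.32. The root hair marker EXPA18 had 0.35 in channel mutants (SE 0.12, limma adjusted p = 0.152) and 0.19 in intact genotypes, and EXPA7 had 0.18 and 0.04. In channel mutants 1 of the 2 in each list had an unadjusted p under 0.05, against 19.2% of all probe sets. The part of these cell types in the ARA12 values was not tested.

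A second mutation moved ARA12 less than the loss of NIP5;1 did at low boron. Each such step compares 1 array with 1 array, so none has a replicate. At 0.3 µM, adding nip5;1 to wild type, bor1 and bor2 gave log2 differences of 1.09, 1.42 and 0.74. At 100 µM the same 3 steps gave 0.01, -0.09 and 0.12. Adding bor1 to nip5;1 gave 0.46 at 0.3 µM and -0.11 at 100 µM, against 0.13 and -0.01 when it was added to wild type. Adding bor2 to nip5;1 gave -0.03 and 0.14, against 0.31 and 0.03 in wild type. Adding nip6;1 to nip5;1 gave 0.19 and -0.08. The highest ARA12 array, the bor1 double mutant at 0.3 µM, also had the lowest GAPDH ratio at that level, 1.38, whose part in the value was not tested beyond the covariate above.

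SBT4.12 showed another pattern. At 0.3 µM it read 5669 units in the nip5;1 single mutant and 4783.3, 6104.3 and 5419.3 in the bor1, bor2 and nip6;1 double mutants. At 100 µM these genotypes read 4693.9, 5900.3, 5405.7 and 4599.4 units. The 2 sets of arrays overlapped, and the bor1 double mutant was the only one of the 4 with less signal at low boron.

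In intact genotypes at 0.3 µM, SBT4.12 read 7029.1 units in wild type, 6552.4 in bor1 and 5646.7 in bor2. At 100 µM it read 3038.2 in wild type, 5615.2 in bor1 and 5011.3 in bor2. The 2 sets did not overlap, but the lowest array at low boron (bor2, 5646.7) and the highest at sufficient boron (bor1, 5615.2) nearly met. How many of all probe sets separate in this way was not counted. Wild type held both the highest and the lowest of the 14 values.

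Class means of SBT4.12 were 5494 ± 551.9 units at low boron and 5150 ± 616.3 at sufficient boron in channel mutants (SD, n = 4 each). In intact genotypes they were 6409 ± 702.2 at low boron and 4555 ± 1348 at sufficient boron (SD, n = 3 each). In order of level, channel mutants at low and then at sufficient boron lay between the highest mean, intact genotypes at low boron, and the lowest, intact genotypes at sufficient boron. Each neighbouring pair in this order had overlapping ranges.

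The low boron response of SBT4.12 was 0.27 in the nip5;1 single mutant and -0.30, 0.18 and 0.24 in the bor1, bor2 and nip6;1 double mutants, a mean of 0.10 (SE 0.16, SD 0.27). In wild type it was 1.21 (2.31-fold), in bor1 0.22 and in bor2 0.17. Their mean of 0.54 (1.45-fold) is smaller than the SD between the 3 genotypes, 0.59. Its SE of 0.18 rests on a spread shared by both classes, and not on these 3 genotypes alone. Without wild type the mean of bor1 and bor2 was 0.20, and without bor2, whose array at 0.3 µM stood apart, it was 0.72. In 6 of the 7 genotypes the signal was higher at low boron, and in 5 of those 6 the log2 difference was at most 0.27.

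Between the classes, the channel mutants were 0.22 log2 units below the intact ones at 0.3 µM (-0.22, SE 0.17) and 0.22 above them at 100 µM (SE 0.17). The difference of the 2 responses was -0.44 (SE 0.24). Without wild type the difference of the responses was -0.10 and the class difference at 100 µM was -0.05, with its sign turned. The class difference at 0.3 µM was -0.15 in that setting. Its values across the classes therefore rest in large part on the wild type arrays.

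**Figure D2:**
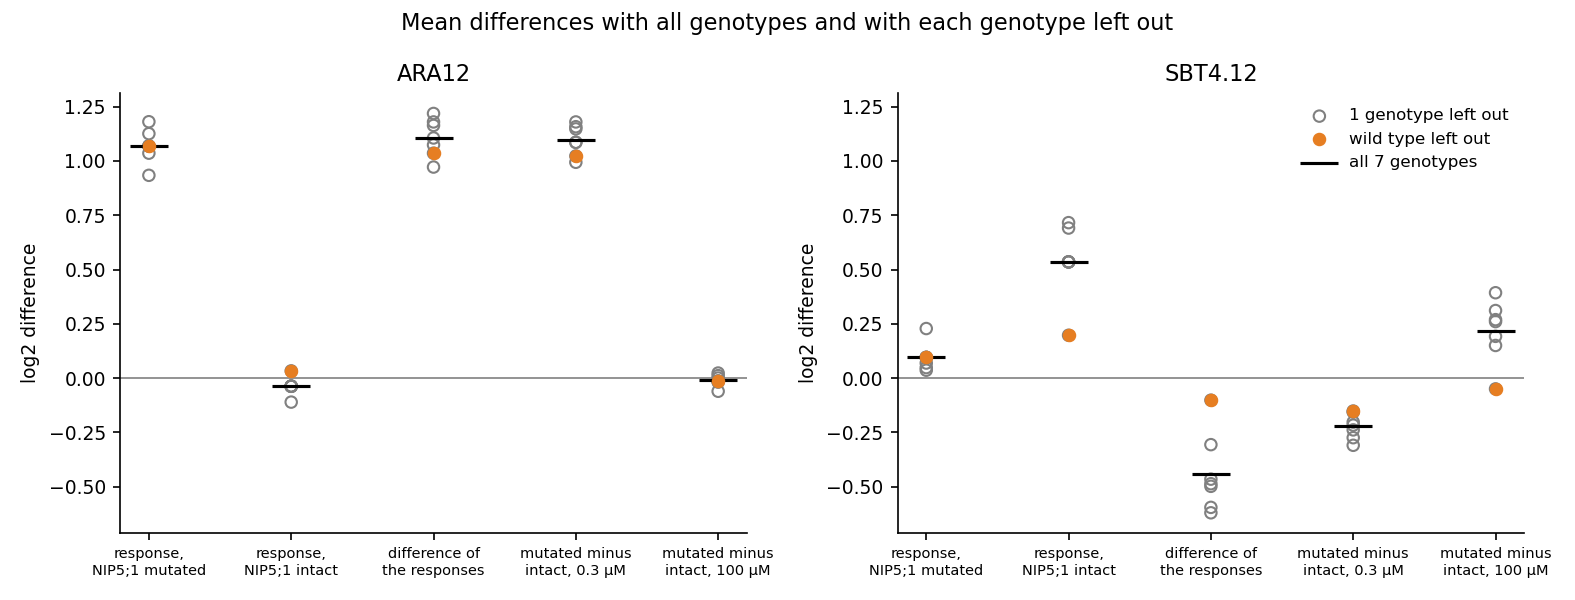
Mean log2 differences of ARA12 (left) and SBT4.12 (right) for 5 contrasts, with all 7 genotypes (black bars), with each genotype left out in turn (open circles) and with wild type left out (orange). For ARA12 the response of the channel mutants stays between 0.93 and 1.18, and for SBT4.12 the response of the intact genotypes is 0.54 with wild type and 0.20 without it.

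On the wild type array at 100 µM, SBT4.12 was 0.78 log2 units under the median of the other 6 arrays at that level. On that array 61 of 13648 probe sets (0.447%) stood further from their own median of the other 6, and 30 of them in the same direction. The array as a whole had the highest median rank correlation of the 14, 0.978, and a GAPDH ratio of 1.77, the highest at 100 µM. With the GAPDH ratio as a covariate the intact response was 0.63. ARA12 on the same array differed from the median of the other 6 by 0.002 log2 units. SBT4.12 was chosen with this value known, so the share of probe sets further off is a description and not a test. Why SBT4.12 was low on this array was not tested.

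The steps from wild type were larger at 100 µM than at 0.3 µM for SBT4.12. At 100 µM, SBT4.12 was higher than in wild type by 0.89 log2 units in bor1, 0.72 in bor2 and 0.63 in nip5;1. At 0.3 µM the same comparisons gave -0.10, -0.32 and -0.31. Each step compares 1 array with 1 array, and those from wild type at 100 µM all share the low wild type array described above. Adding bor1, bor2 or nip6;1 to nip5;1 changed its log2 signal by -0.25, 0.11 and -0.07 at 0.3 µM, and by 0.33, 0.20 and -0.03 at 100 µM. Adding nip5;1 to bor1 gave -0.45 at 0.3 µM and 0.07 at 100 µM, and adding it to bor2 gave 0.11 at both levels.

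The annotation names 10 further subtilase genes on the array, and 5 of them were bright enough to be tested. At a limma adjusted p under 0.05, 0 of these 5 passed for a response to boron in channel mutants (median log2 -0.12, all probe sets 0.003). In intact genotypes 0 of 5 passed (median 0.09, all probe sets -0.01). At an unadjusted p under 0.05 the counts were 1 and 2 of 5, against 19.2% and 8.43% of all probe sets. None of the 5 passed for the difference of the responses or for the classes at 100 µM. Of all probe sets 0.11% and 0% were called there, so these counts are not read as a result about subtilases. At an unadjusted p under 0.05 there was 1 of 5 in each, against 7.53% and 2.81% of all probe sets. Of all probe sets, 5.17% and 0.132% were called for the 2 responses.

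ATSBT5.2 is reported, like SBT4.12, to cut the IDA precursor, and was the 1 subtilase to pass among those tested. It was lower in channel mutants than in intact ones at low boron, where 0.278% of all probe sets were called lower. At 0.3 µM it read 296.2 units in the nip5;1 single mutant and 255.3, 325.3 and 316.3 in the bor1, bor2 and nip6;1 double mutants. At that level it read 434.4 in wild type, 499.3 in bor1 and 572.2 in bor2. The classes did not overlap, but how many of all probe sets separate in this way was not counted. The difference was -0.75 log2 units (0.595-fold, SE 0.15, limma adjusted p = 0.0236). It did not pass without wild type (-0.85, limma adjusted p = 0.0723), bor1 (0.0541), the nip5;1 single mutant (0.0997) or the bor1 double mutant (0.114), with the GAPDH covariate (-0.69, 0.0619) or with no filter on dim probe sets (0.0792). It passed without bor2 (-0.65, limma adjusted p = 0.0293). At 100 µM the difference was -0.22 (SE 0.15, limma adjusted p = 1), and its 4 and 3 arrays overlapped, at 283.2 to 369 units in channel mutants and 330.8 to 483.7 in intact ones. Its response to low boron was -0.19 in channel mutants (SE 0.12, limma adjusted p = 0.455) and 0.34 in intact genotypes (SE 0.14, limma adjusted p = 0.574), and the difference between these was -0.53 (SE 0.19, limma adjusted p = 0.476). Without bor1 the response of the intact genotypes was 0.21.

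SBT1.3 averaged 89.18 ± 25.01 units at low boron and 138 ± 40.84 at sufficient boron in channel mutants (SD, n = 4 each). The difference was -0.61 log2 units (SE 0.19) and missed the threshold (limma adjusted p = 0.0974), with less signal at low boron in all 4 genotypes. With the GAPDH ratio as a covariate it was -0.96 and passed (limma adjusted p = 0.0292). In intact genotypes SBT1.3 averaged 136.9 ± 50.76 and 189.9 ± 28.33 units (SD, n = 3 each), a difference of -0.52 (SE 0.22, limma adjusted p = 0.567) that was -0.30 without wild type and -0.79 without bor2. SBT3.5, known in roots for acting with a pectin methylesterase, had differences of -0.12 in channel mutants and -0.35 in intact ones (limma adjusted p = 0.784 and 0.675). Between the classes at 100 µM it differed by -0.46 (SE 0.21, limma adjusted p = 1).

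The remaining tested subtilases act inside the cell. S1P, the site-1 protease of the Golgi, ranged from 272.3 to 399.6 units over the 14 arrays, with responses of -0.09 in channel mutants and 0.12 in intact ones (limma adjusted p = 0.766 and 0.883). TPP2, a large tripeptidyl peptidase of the cytosol, ranged from 2440 to 3075 units, with responses of 0.08 and 0.09 (limma adjusted p = 0.631 and 0.842).

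The other 5 subtilases were too dim to test, so whether they differ was not tested. SBT3.12 and SBTI1.1 averaged 49.65 and 49.15 units over the 14 arrays. SBT4.13, reported to share IDA as a substrate with SBT4.12, averaged 16.01 units with 9 of 14 arrays at or under the floor of 20 units. SBT5.4 had 11 arrays there and SBT3.3 had 12. The 2 SBT3.3 arrays above the floor were the bor1 double mutant (53.1 units) and the nip6;1 double mutant (22.6 units), both at 0.3 µM. Probe sequences were not used here, so cross-hybridisation between close family members was not checked.

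**Figure D3:**
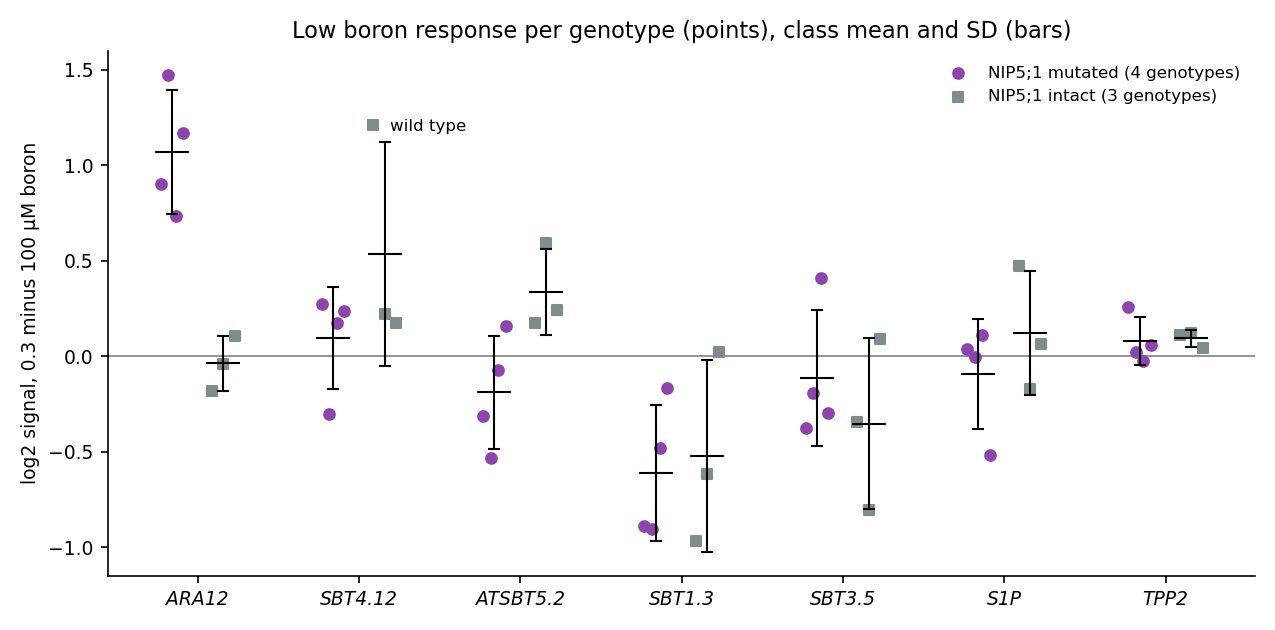
Low boron response (log2 signal at 0.3 µM minus 100 µM) of ARA12, SBT4.12 and the 5 other tested subtilases, with 1 point per genotype and bars for the class mean and SD (NIP5;1 mutated in purple, n = 4, and intact in grey, n = 3). The ARA12 points of the channel mutants lie between 0.73 and 1.48, and the wild type point of SBT4.12 lies at 1.21. ARA12 and SBT4.12 were described without a test, and none of the 5 others passed for a response in either class.

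Other protease families, and lists of genes related to subtilases, were looked at through the probe sets that the annotation gives for them. Of 29 serine carboxypeptidase genes with a named probe set 17 were tested, and in the channel mutants 1 rose with low boron, 1 fell and 15 did not pass (median 0.006, all probe sets 0.003). Of all probe sets, 2.85% were called higher and 2.32% lower in that contrast. The riser scpl35 averaged 806.6 ± 156 units at low boron and 522.3 ± 39.9 at sufficient boron in channel mutants (SD, n = 4 each), a log2 difference of 0.61 (SE 0.12, limma adjusted p = 0.0154). It was not called without the single mutant nip5;1 or its bor1 or nip6;1 double mutant, with the GAPDH covariate or with no filter (limma adjusted p up to 0.107). At 0.3 µM scpl35 was also higher in channel mutants than in intact ones, where it averaged 436 ± 120 units (n = 3), by 0.90 (SE 0.18, limma adjusted p = 0.0299), the 1 call among the 17 there, where 0.989% of all probe sets were called. That call was lost without any genotype except bor2 and the bor2 double mutant, and in the 2 settings just named (limma adjusted p up to 0.152). The faller scpl31 averaged 119.1 ± 20.9 units at low boron and 234 ± 75.8 at sufficient boron (SD, n = 4 each), a log2 difference of -0.93 (SE 0.23, limma adjusted p = 0.0403). It was lost in 8 settings, among them without wild type (limma adjusted p = 0.0549) and with no filter (0.221).

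In the intact genotypes 0 of 17 serine carboxypeptidases passed in limma, against 0.132% of all probe sets. At an unadjusted p under 0.05 there were 3 of 17, against 8.43% of all probe sets. The cysteine protease CP1 had differences of -0.28 in channel mutants and -0.43 in intact ones, and the aspartic protease APA1 0.08 and 0.08 (0 of 2 called by limma in either class). CP1 alone had an unadjusted p under 0.05, in the intact class. Of 20 genes listed for the IDA pathway and other subtilase substrates, the annotation gives a probe set for 2. These 2 are not IDA genes and are not given here as substrates, since the list also holds receptors and other genes. They are not read as a measure of what ARA12 or SBT4.12 cut. FER, the receptor kinase FERONIA, ranged from 2057 to 2498 units at 0.3 µM and from 1845 to 2465 at 100 µM (response 0.08 in channel mutants, limma adjusted p = 0.693). AT1G71950, to which the tables give no name, ranged from 1452 to 1858 and from 1211 to 1592 units (response 0.18, limma adjusted p = 0.313). Of 11 listed mucilage and pectin genes the annotation gives a probe set for 2, AT5G49180 and AT1G56100. Their mean signals of 17.35 and 2.557 units were too dim to test. The annotation does not list 8730 probe sets of the array, so further genes of both lists may be on it.

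The named probe sets most like each gene were found by Pearson correlation of log2 signal over the 14 arrays, which share genotypes and boron levels. For ARA12 these were AT1G29980 (r = 0.971), the expansin EXPA20 (0.968), AT4G16563 (0.959), AT3G15720 (0.955) and AT2G41890 (0.953). Expansins loosen cell walls, and the tables give no role for the others. Without the wild type arrays (n = 12) r was 0.947 to 0.974. AT1G29980 read 2095.4 units in the nip5;1 single mutant and 2812, 1694.2 and 2373.6 in the bor1, bor2 and nip6;1 double mutants at 0.3 µM, and 1058.3, 977, 1219.8 and 972.8 units in the same genotypes at 100 µM. As for ARA12, the bor1 double mutant was highest and the bor2 double mutant lowest of the 4 at low boron. The mean responses of the 5 ranged from 0.71 to 1.74 in channel mutants, with EXPA20 at the top, and from -0.18 to 0.19 in intact genotypes.

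SBT4.12 had no equally close match. Its 5 most similar named probe sets were AT2G26920 (r = 0.773), AT2G24230 (0.743), AT5G16450 (0.738), AT1G80950 (0.733) and AT3G07900 (0.711). Without the wild type arrays r was 0.669, 0.668, 0.654, 0.39 and 0.493 in the same order. AT2G26920 read 539.8 units in wild type at 0.3 µM and 387.3 at 100 µM, which were also its highest and lowest of the 14 values. Between ARA12 and SBT4.12 themselves r was -0.836 over the 7 arrays at 0.3 µM, where ARA12 separates the 2 classes, and -0.026 over the 7 at 100 µM. Over all 14 arrays it was 0.011. Within each class at 0.3 µM, too, the order of the genotypes by ARA12 was the reverse of that by SBT4.12. Why the 2 genes ran in opposite order there was not tested.

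**Figure D4:**
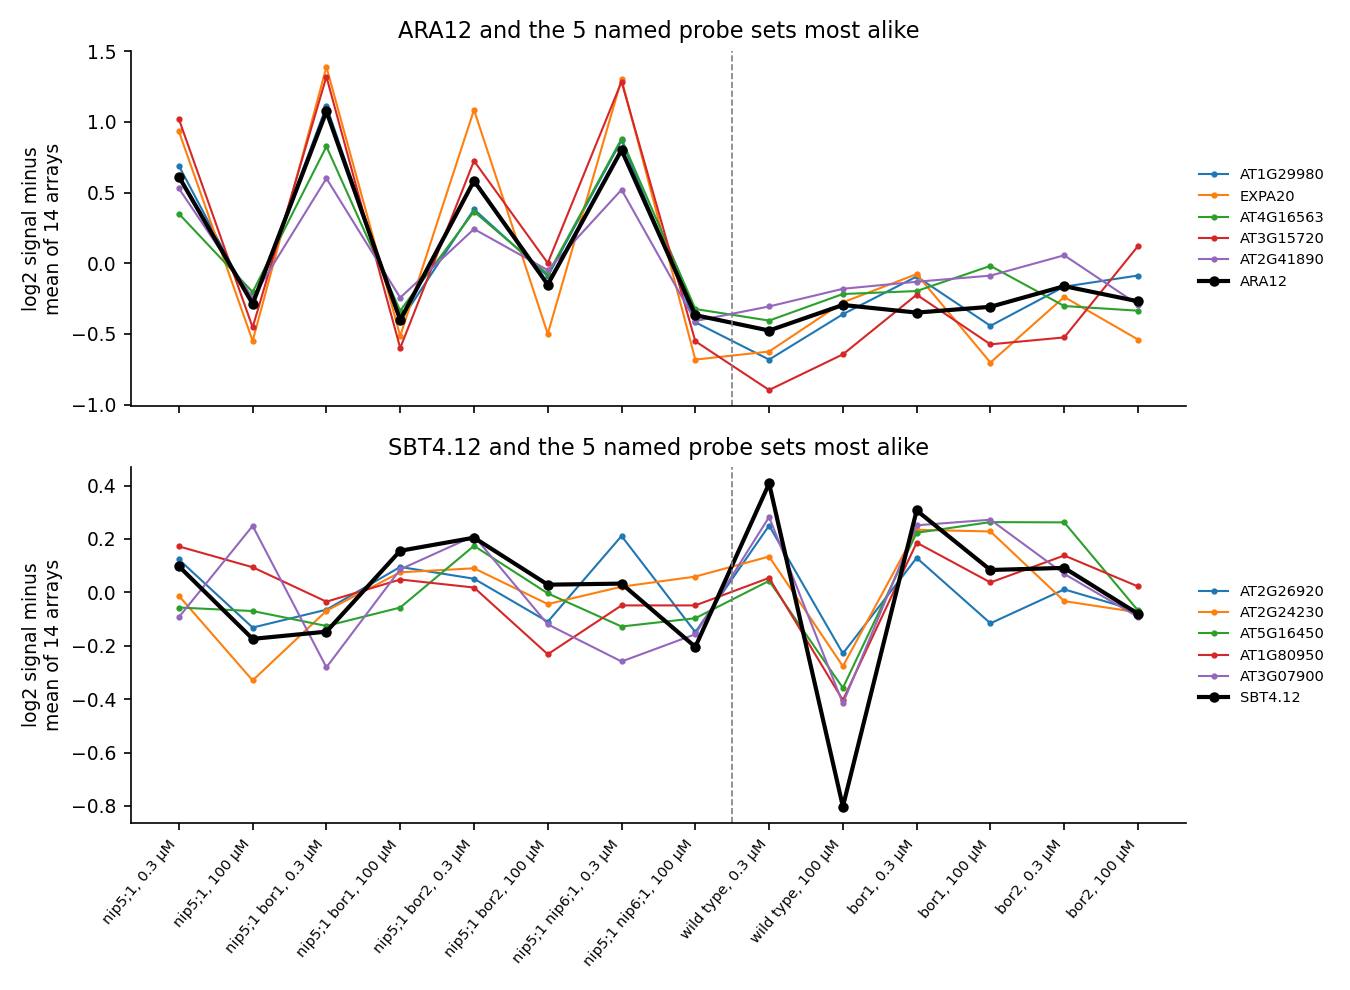
Log2 signal minus the mean of the 14 arrays for ARA12 (upper, black) and SBT4.12 (lower, black), each with the 5 named probe sets of highest Pearson correlation, with arrays in genotype order and 0.3 before 100 µM, and NIP5;1 mutated left of the dashed line. The ARA12 group peaks on the 4 channel-mutant arrays at low boron (r 0.953 to 0.971), and 4 of the 5 in the SBT4.12 group (r 0.711 to 0.773) are lowest, as SBT4.12 is, on the wild type array at 100 µM.

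Genes beside the 2 on chromosome 5 were described from the gene order of the RefSeq table of assembly TAIR10.1. Among the 5 protein-coding genes on each side of ARA12, AT5G67340 and AT5G67390 were tested, with responses of 0.37 and 0.12 in channel mutants (limma adjusted p = 0.448 and 0.701). Near SBT4.12, AT5G59080, 2 genes away, rose by 0.62 in channel mutants (limma adjusted p = 0.0185), where 5.17% of all probe sets were called. It had a difference of 0.68 in intact ones (limma adjusted p = 0.165). The 2 responses differed by -0.06, and its mean signal was 154.2 units. AT5G59050 and AT5G59070 had differences of -0.11 and 0.25 in channel mutants (limma adjusted p = 0.784 and 0.43). On the other side of SBT4.12, AT5G59100, SBT4.13 and AT5G59130 had mean signals of 31.36, 16.01 and 5.236 units and were not tested.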

How the data were processed

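The deposited table holds linear intensities. The authors used MAS5, per the submitters' processing notes, in a version the sources used here do not give. Each of the 14 arrays was scaled to the mean 2% trimmed mean (500.04 units), values under the 20th percentile (20 units) were set to it, and log2 was taken. Neither gene had a value at this floor. Of 22746 probe sets, the upper 60% by mean signal were tested (13648, mean at least 113.2 units). Names came from the platform annotation and the RefSeq gene table (TAIR10.1), and 13513 probe sets name 1 gene. Fits used limma 3.58.1 in R 4.3.3 with an intensity trend and statmod 1.5.0, and were tested on simulated data. Their p-values are two-sided, adjusted by Benjamini-Hochberg across the 13648 probe sets, with calls under 0.05. Responses were fitted with genotype as a block and a boron term per class, while the class fit treated genotype as random (consensus correlation 0.105). With 1 array per group, p-values rest on the spread between genotypes. Differences of genotype and those of array or RNA cannot be told apart in that spread. SDs of signals are over genotypes on the linear scale. Each SE is limma's, from a spread shared by both classes and drawn towards that of other probe sets. It can therefore be smaller than the SD printed beside it would give. Alternatives were quantile normalization, a floor at the 10th percentile (5 units), the upper 40% of probe sets, no filter, no trend, a robust prior, the log2 GAPDH ratio as a covariate and leaving out each genotype. Figures used Python 3.11.15 and matplotlib 3.10.9. Members and lists were chosen with earlier results of these data known. Named genes were both members, other subtilases past the threshold or, failing 3, those with the smallest p, 2 per protease list past the threshold, and the 5 of highest correlation with each member. CP1 and APA1, each alone in its list, and the genes beside each member were named after their values were seen. The subtilase list held 58 loci. Of these 12 have a named probe set, and 34 more have a probe set with no name in the tables and were left out. Marker lists for root meristem, root cap, endodermis, xylem, lateral root and root uptake had 0 named probe sets, the root hair list 2 of 4. The number of arrays limits the precision.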

Additional observations from a re-analysis of the deposited data

Results flagged for a closer look

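Of 42 sets of values checked for a single value far from the others, 3 stood out, all of SBT4.12. Chance marks about 1 in 20 separate sets, but these sets overlap and SBT4.12 was chosen with its values known, so the 3 are a description and not a test. Among the 7 genotypes at 100 µM, the log2 signal of wild type, 11.57, lay far below the other 6. Among the 7 responses to low boron, that of wild type, 1.21, lay far above the rest. Among the 4 channel mutants, the response of the bor1 double mutant, -0.30, lay far below the others, which ran from 0.18 to 0.27. The first 2 share the wild type array at 100 µM. The intact genotypes, a set of 3, were not checked in this way.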

How the results depend on the processing

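With the replicate number as the block, no paired analysis was possible because each group carries only number 1. The response fit instead paired the 2 boron levels within each genotype. For ARA12 and SBT4.12, all 100 alternative values moved by less than 1 SD between genotypes. With a genotype left out this could not be otherwise, because the distance of that genotype is itself part of the SD. It therefore does not show that the values are stable, and those of SBT4.12 that rest on wild type changed as given above. With 1 genotype left out, the ranges for ARA12 were 0.93 to 1.18 (channel mutants' response), -0.11 to 0.03 (intact), 0.97 to 1.22 (difference of the responses), 0.99 to 1.18 (classes at 0.3 µM) and -0.06 to 0.02 (classes at 100 µM). For SBT4.12 they were 0.04 to 0.23, 0.20 to 0.72, -0.62 to -0.10, -0.31 to -0.15 and -0.05 to 0.39. The count of other subtilases called between the classes at 0.3 µM was 1, against 0 with no filter, 0 with the GAPDH covariate and 0 to 1 with a genotype left out, and in the response of the channel mutants it was 0, and 1 with the GAPDH covariate. In the upper 40% of probe sets 3 of the 5 were tested. Calls over all probe sets ran from 183 (no filter) to 946 (without bor2) for the channel mutants' response (706 as reported), from 5 (no filter) to 23 (robust prior) for the intact response (18), from 0 (no filter) to 46 (without the bor2 double mutant) for the difference (15), from 26 (without wild type) to 246 (without bor2) for the classes at 0.3 µM (135) and from 0 to 2 (no filter) at 100 µM (0). With no filter more probe sets were tested (22746), and otherwise the cause was not tested. Low signals limit SBT3.3, SBT4.13 and SBT5.4, which lay mostly at the floor.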
